A study of Mus musculus with 6 samples.

Results

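The replication-dependent histone genes were examined in RNA-seq libraries of CD8+ T cells taken from mouse spleen. They were chosen by annotation alone, as protein-coding genes whose GENCODE M21 symbol begins with Hist1h, Hist2h, Hist3h or Hist4h, and 55 of the 35458 gene identifiers in the libraries met this rule (6 of type H1, 13 of H2a, 14 of H2b, 10 of H3 and 12 of H4). The annotation holds 67 such genes, and the other 12 were not analysed here. The control group was 3 libraries of genotype Cd4cre and the KO group 3 libraries of genotype Cd4creGlut10fl/fl, so the Cre transgene was carried by all mice and only the KO mice had floxed alleles of Glut10, a sugar transporter encoded by Slc2a10. Cd4cre is active in developing T cells, before the CD4 and CD8 lineages part, so it acts in CD8+ cells as well. The design sets cells with an intact transporter gene against cells in which it was targeted. Age, sex and treatment are not given in the labels, nor whether libraries within a group came from different mice, so p-values measure only how far these libraries scatter, and that scatter may be technical. The series title mentions lymphoma, but no label gives the tumour status of the mice. Values for a group are listed throughout in the order of replicates 1, 2 and 3.

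Histones package DNA into chromatin: H2A, H2B, H3 and H4 form the core of the nucleosome, and H1 binds the linker DNA between cores. Most of this protein is needed when DNA is copied, and the mRNAs of these gene clusters accumulate in S phase and are degraded when replication ends. They are the one class of animal mRNA that ordinarily lacks a poly(A) tail. Their mature end lies just after a conserved stem-loop that is bound by the protein Slbp, and a library made from poly(A) RNA captures only the minority of molecules that run past this site to a downstream poly(A) signal. Such polyadenylated forms are known from differentiating and non-dividing cells. The labels name total RNA as the molecule, and whether poly(A) RNA was selected is not given in the sources used here.

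Because the stem-loop is the element that sets these mRNAs apart, the annotated transcripts of GENCODE M21 were searched for it on the sense strand: a pair of G, any pair of bases, C, the run TTTTCAG, any pair of bases and a pair of C. It was found in 29 of the 55 genes, against 0.0952% of 58797 protein-coding transcripts in the annotation. In 14 genes it lay within 60 bases of the end of an annotated transcript, and in 15 every transcript that holds it went on for longer. The other 26 held no match, which says only that these letters are not in the annotated model. The sites below are from members whose levels are described later, with the 16-base element in capitals between 5 flanking bases on each side, T standing for U.
Hist1h1c: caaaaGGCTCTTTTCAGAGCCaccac
Hist1h2bg: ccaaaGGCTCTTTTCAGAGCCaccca
Hist3h2ba: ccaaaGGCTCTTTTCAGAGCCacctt
Hist1h3a: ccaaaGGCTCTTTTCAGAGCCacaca
Hist1h4d: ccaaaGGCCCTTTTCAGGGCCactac
Hist1h4h: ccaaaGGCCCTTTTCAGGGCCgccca
Hist1h4n: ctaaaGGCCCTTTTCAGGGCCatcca
The loop, TTTC, is part of the run that was searched for, so every match had to hold it, and whether it varies was not tested. The stem bases that the search did not fix differed by histone type. All 21 matching genes of types H1, H2a, H2b and H3 held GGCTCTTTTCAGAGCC. Of the 8 matching H4 genes, 7 held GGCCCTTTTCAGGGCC and 1, Hist1h4j, held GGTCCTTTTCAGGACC, each with a stem that still pairs.

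Promoter sequence also followed histone type. Of the 55 genes, 49 matched a RefSeq promoter (GRCm38.p6, 250 bases before to 50 after the start), and 3 motifs were searched on both strands. TATAAA was present in 30 of the 49 (61.2%) against 14.2% of all 27025 promoters in the table. CCAAT was present in all 38 promoters of types H1, H2a, H2b and H3 but in 3 of 11 of type H4, against 37.9% of all promoters. AAACACA, known as the H1 box, was present in 5 of 6 H1 promoters and 1 of the other 43, against 7.14% of all promoters. Shown here are the 150 bases upstream of the start of Hist1h1c, the most abundant member, and of Hist1h4d, the member with the most reads among those whose KO libraries all lay above the controls. Capitals mark these motifs, and both sequences are RefSeq's on GRCm38.p6, plus strand, at chr13:23738657-23738806 and chr13:23581418-23581567.
Hist1h1c: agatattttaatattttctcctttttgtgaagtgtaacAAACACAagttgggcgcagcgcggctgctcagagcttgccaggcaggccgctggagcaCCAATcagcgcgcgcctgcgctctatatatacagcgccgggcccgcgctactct
Hist1h4d: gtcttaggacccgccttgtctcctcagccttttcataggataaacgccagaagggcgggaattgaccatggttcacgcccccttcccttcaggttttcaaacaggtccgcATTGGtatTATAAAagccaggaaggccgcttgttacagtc
Hist1h1c has CCAAT and the H1 box, and Hist1h4d has TATAAA with CCAAT on the other strand. A match describes the sequence and is no evidence that a factor bound there.

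The values were FPKM, fragments scaled to exon length and to the library's total. The totals implied by the values were 11840600 to 15036200 fragments in the controls and KO 2, and 3420290 and 3004540 in KO 1 and KO 3. KO 1 and KO 3 also stood apart in content: 812 genes of olfactory and vomeronasal receptors, proteins of sensory neurons, had a summed FPKM of 807 and 856 there and 15.3 to 65.0 in the other libraries. The summed FPKM of 10 T cell markers was 420 to 1600 in the controls and 1570 to 2490 in the KO libraries. Control 2 and control 3 stood apart by markers of other cells, with a summed FPKM of 11 neutrophil markers of 16500 and 29200 against 58.4 to 680 in the other 4 libraries, and of 10 erythroid markers of 2260 and 1060 against 23.2 to 52.9. The targeted gene, Slc2a10, had 4, 2 and 2 implied reads in the controls, which is 0.0946, 0.0373 and 0.0373 FPKM, and was listed at 0 in every KO library. A count of 0 allows up to 0.246, 0.0572 and 0.28 FPKM there (3 reads), so its loss was not detectable at this depth. In these bulk samples, fewer cells of a type and less RNA per cell cannot be told apart.

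Few reads were assigned to the histone gene models. Whether poly(A) RNA was selected and how shared reads were counted are not given, so this is no measure of histone mRNA in the cells. All 55 genes together took 0.00708% to 0.0217% of the implied reads, or 909, 3659 and 2841 reads in the controls and 449, 1406 and 484 in the KO libraries. The summed FPKM of the 55 genes was 59.9, 195 and 150 in the controls and 116, 101 and 135 in the KO libraries. In every library this sum lay below the level of a single polyadenylated histone variant: H2afz, which encodes the replication-independent H2A.Z, measured 168, 282 and 268 FPKM in the controls and 152, 230 and 166 in the KO libraries. H3f3b, one of the genes for the H3.3 replacement histone, was at 191 to 369 FPKM. The sum did not separate the groups, with means of 135 ± 68.6 FPKM for control and 117 ± 17.3 for KO (SD, n = 3 each), a log2 ratio of the means of -0.20, with all KO values inside the range of the controls. This ratio was 0.97 without control 2 and 3, the libraries rich in neutrophil and erythroid RNA, which leaves 1 control library.

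The 3 most abundant genes made up 43%, 77.8% and 70.3% of the summed FPKM in the controls and 46.1%, 34.9% and 50.7% in the KO libraries. By mean over the 6 libraries, 3 genes reached 5 FPKM or more (Hist1h1c, Hist1h2bc and Hist1h4i, at 42.4, 16.8 and 14.2 FPKM), 17 lay between 1.13 and 4.84 FPKM, and 35 were under 1 FPKM. No member was listed at 0 in all 6 libraries, and 21 were above 0 in all of them. At least 1 FPKM was reached in every library by 10 members and in none by 20. The number of members above 0 was 41 to 46 in the 4 deeper libraries and 31 in both KO 1 and KO 3. These 2 libraries had fewer reads, and 3 reads in a gene of 1 kb made 0.877 and 0.998 FPKM there against 0.200 to 0.253 in the others. Histone models are mostly shorter than 1 kb, where 3 reads make a higher FPKM still, so values under 0.877 FPKM in KO 1 and 0.998 in KO 3 cannot be told from 0 in such genes. These limits cover counting error only.

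**Figure D1:**
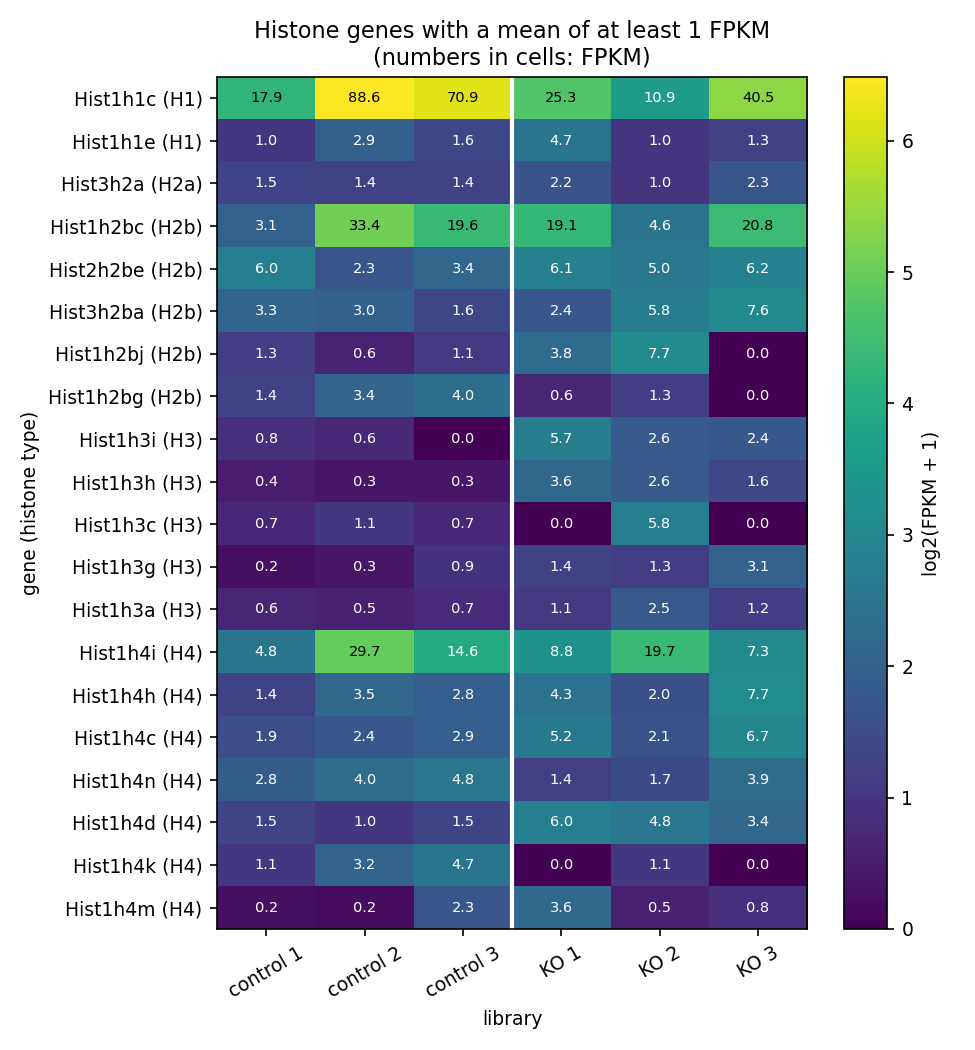
FPKM of the 20 histone genes with a mean of at least 1 FPKM (rows, grouped by histone type) in the 6 libraries (columns, controls left and KO right of the white line), coloured by log2(FPKM + 1). Hist1h1c, at 10.9 to 88.6 FPKM, is the brightest row, and most cells of the other rows lie under 5 FPKM.

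Hist1h1c, the gene of the linker histone variant H1.2, measured 17.9, 88.6 and 70.9 FPKM in the controls and 25.3, 10.9 and 40.5 in the KO libraries, from 135 to 2075 implied reads per library. Hist1h2bc, a gene of a core H2B, measured 3.10, 33.4 and 19.6 FPKM in the controls and 19.1, 4.63 and 20.8 in the KO libraries. Within each group the order was alike for both: control 1 was the lowest control and KO 2 the lowest KO library. Rn7sk, a short nuclear RNA made by RNA polymerase III that has no poly(A) tail, was ordered by library in a similar way, at 4.85, 155 and 255 FPKM in the controls and 57.4, 9.88 and 129 in the KO libraries. Other RNAs that mostly lack a poly(A) tail were not all ordered so. Terc and Scarna2, at most 1.13 and 1.48 FPKM, were listed highest in control 1 among the controls and in KO 2 among the KO libraries. Their values in KO 1 and KO 3, 0.691 to 0.804 FPKM, lay under what 3 reads make there in a gene of 1 kb. Their order among the KO libraries is thus uncertain. Among macrophage markers, the mean log2(FPKM + 1) was 3.89 to 4.54 in the controls, 4.29 and 5.39 in KO 1 and KO 3 and 1.44 in KO 2. The neutrophil and erythroid markers were highest in control 2 and 3. The part of neutrophil, erythroid or macrophage RNA in the levels of Hist1h1c and Hist1h2bc was not tested. The groups overlapped: the log2 difference, KO minus control on the log2(FPKM + 1) scale used throughout, was -1.08 (SE 0.71) for Hist1h1c and -0.08 (SE 0.91) for Hist1h2bc, with limma adjusted p of 0.470 and 0.974.

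Hist1h4i, a gene of the core histone H4, varied in another way. It measured 4.76, 29.7 and 14.6 FPKM in the controls and 8.85, 19.7 and 7.32 in the KO libraries, so that KO 2 lay above KO 1 and KO 3, unlike for the first pair. The groups overlapped, with a log2 difference of -0.24 (SE 0.67, limma adjusted p = 0.878). Hist2h2be, a further H2B gene, was steadier, at 5.96, 2.26 and 3.43 FPKM in the controls and 6.14, 5.02 and 6.22 in the KO libraries. None of the 2620 bases of its model gave a 50-base stretch shared with another histone gene model, so its reads could be assigned to it alone among histone genes.

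**Figure D2:**
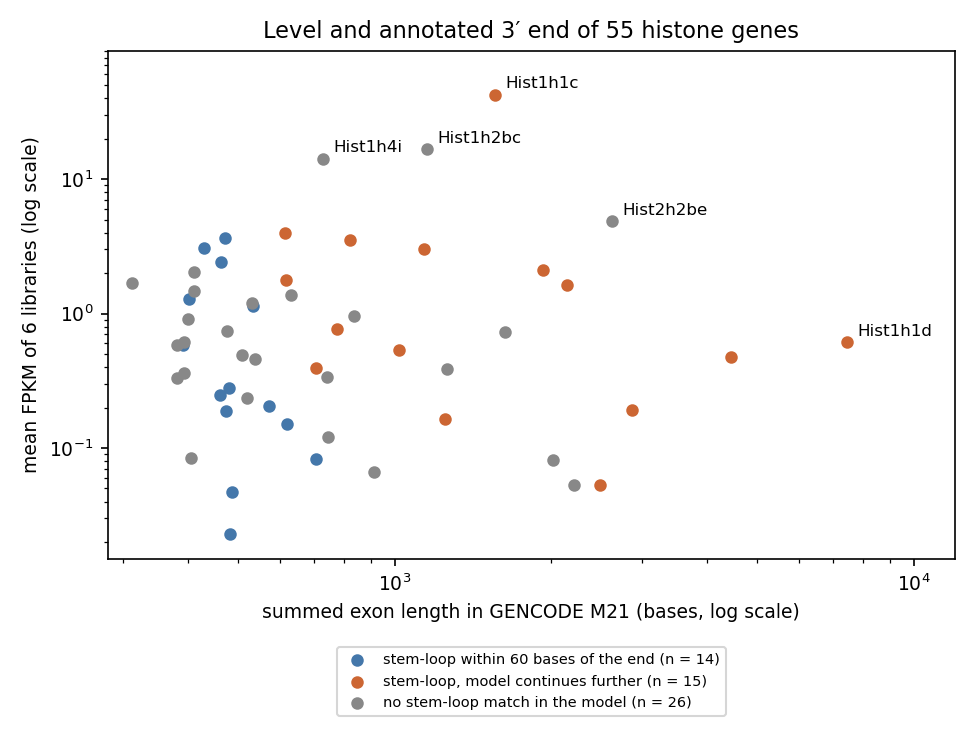
Mean FPKM over 6 libraries (vertical, log scale) against the summed exon length of the gene in GENCODE M21 (horizontal, bases, log scale), 1 point per histone gene, coloured by where the stem-loop lies. The 14 genes with the stem-loop within 60 bases of the end stay at or below 3.64 FPKM, and Hist1h1c, at 42.4 FPKM, has a model that continues 840 bases past it.

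The most abundant member had a model that runs past the stem-loop. In Hist1h1c the annotated transcript goes on for 840 bases after it, with AATAAA, the usual poly(A) signal, in its last 60 bases. As a class, the 15 genes whose model continues past the stem-loop had a median mean level of 0.771 FPKM (0.0534 to 42.4). The 14 with the stem-loop near the end had 0.263 FPKM (0.0230 to 3.64), and the 26 without a match 0.6 FPKM (0.0535 to 16.8). The classes overlapped almost fully, and a long model was no guarantee of a high level: Hist1h1d, another linker histone gene, whose model continues 4884 bases past the stem-loop, had a mean of 0.615 FPKM. AATAAA in the last 60 bases was found in 14 members and in 41.1% of protein-coding transcripts, and the members with it had a median of 0.466 FPKM against 0.615 for those without. FPKM divides by this annotated length, so a model longer than the RNA in the cell lowers the value.

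Near-identical gene copies limit these values. Over 50% of the 50-base stretches of the model were shared with another histone gene model in 25 members, whose highest mean level was 3.09 FPKM. All 3 genes above 5 FPKM were outside this set, with 8.54% of such stretches shared in Hist1h1c, 29.4% in Hist1h2bc and 28.9% in Hist1h4i. How reads that fit several genes were counted is not stated in any source used here, so the levels of these 25 genes are uncertain singly.

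By histone type, the composition of the summed level differed between libraries. H1 made up 33.5%, 47.8% and 49.2% of the summed histone FPKM in the controls and 26.3%, 13.5% and 31.6% in the KO libraries, so that the share was lower in all KO libraries. The share also depends on the other types, and the H1 sum itself overlapped between the groups, at 20, 93.2 and 73.6 FPKM in the controls and 30.4, 13.6 and 42.8 in the KO libraries. Most of it was Hist1h1c. The other H1 genes were low, with Hist1h1e at 1 to 4.69 FPKM and Hist1h1a, Hist1h1b and Hist1h1d under 1 FPKM in every library. Hist1h1t, the linker histone of the testis, had 1 implied read in KO 1 and was listed at 0 in the other 5 libraries.

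Among the types, H3 had the largest log2 ratio of the group sums. The 10 H3 genes summed to 4.16, 5.78 and 4.25 FPKM in the controls and to 13.2, 18.5 and 10.7 in the KO libraries, means of 4.73 ± 0.912 and 14.1 ± 3.97 (SD, n = 3 each) and a log2 ratio of 1.58. The lowest KO library had a higher sum than the highest control. The values rest on 33, 66 and 42 implied reads in the controls and 21, 163 and 19 in the KO libraries. The log2 ratio was 1.97 without KO 1 and KO 3, 1.76 without control 2 and 3, and 1.34 to 1.75 with single libraries left out. In KO 1 and KO 3 the 812 olfactory and vomeronasal receptor genes summed to 807 and 856 FPKM, against 15.3 in KO 2. All 14 tested receptor genes had higher estimates in KO (median 2.10), against 56.9% of genes tested. What raised the receptor values, and its part in the H3 sum, was not tested. No p is given for such sums, and 3 against 3 libraries cannot give an exact permutation p below 0.1.

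Within H3 the contrast came from several genes of few reads. Hist1h3i measured 0.822, 0.648 and 0 FPKM in the controls and 5.69, 2.65 and 2.43 in the KO libraries, from 4, 4 and 0 and 8, 16 and 3 implied reads. Hist1h3h measured 0.411, 0.324 and 0.324 FPKM in the controls and 3.56, 2.65 and 1.62 in the KO libraries, from 2 reads in each control and 5, 16 and 2 in the KO libraries. Hist1h3a measured 0.633, 0.499 and 0.747 FPKM in the controls against 1.1, 2.55 and 1.25 in KO, from 2 reads each in KO 1 and KO 3. Hist1h3g was at 0.198 to 0.935 FPKM in the controls and 1.28 to 3.12 in the KO libraries. For Hist1h3h, 3 reads make 2.13 FPKM in KO 1 and 2.43 in KO 3, so the value of KO 3 lay under this limit. For Hist1h3a, 3 reads make 1.64 and 1.87 FPKM there, and the values of both libraries lay under the limit. For Hist1h3g, 3 reads make 1.65 FPKM in KO 1, where the value was 1.37. Hist1h3h and Hist1h3i share 93.9% and 87.6% of their 50-base stretches with other histone models, so their reads cannot be assigned to either gene with certainty. Hist1h3c was at 5.85 FPKM in KO 2, part of the H3 sum there, was listed at 0 in KO 1 and KO 3, and was at 0.680 to 1.09 in the controls. Its model has 630 bases, so 3 reads make more than 0.877 FPKM in KO 1 and 0.998 in KO 3. The 0 values there thus do not show a level below the controls.

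The H2a genes showed low sums with the same order of the groups. They added up to 3.04, 3.23 and 3.05 FPKM in the controls and 5.89, 4.99 and 9.87 in the KO libraries, from 50 to 61 implied reads per control and 21, 62 and 25 in the KO libraries. The log2 ratio of the means was 1.15, and 0.68 without KO 1 and KO 3. What raised the receptor values in KO 1 and KO 3, and its part in the H2a sum, was not tested. Hist3h2a, the one H2a gene with a mean above 1 FPKM, overlapped between the groups, at 1.46, 1.40 and 1.39 and 2.18, 0.952 and 2.33 FPKM. Hist1h2af measured 4.17 FPKM in KO 3 from 5 reads and at most 0.733 FPKM in any other library. Among the other members, Hist1h2ai (0 to 1.56 FPKM), Hist1h2ak (0 to 1.49) and Hist1h2ae (0 to 0.888) were near the limit of detection.

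H2b and H4 did not separate the groups. The 14 H2b genes summed to 31.8 ± 14.6 FPKM (control) and 33.8 ± 5.02 FPKM (KO), and the 12 H4 genes to 32.8 ± 15.7 and 33.5 ± 0.776 (SD, n = 3 each). Within these types single genes lay in opposite directions, and none passed the test over all genes. Hist3h2ba, an H2B gene outside the large Hist1 cluster, measured 3.3, 3.04 and 1.62 FPKM in the controls and 2.38, 5.77 and 7.59 in the KO libraries, with overlap. Hist1h4d measured 1.5, 1.02 and 1.52 FPKM in the controls and 5.95, 4.85 and 3.39 in the KO libraries, all above the controls. Hist1h2bg measured 1.42, 3.35 and 4.04 FPKM in the controls and 0.613, 1.28 and 0 in the KO libraries, all listed below the controls. For this gene 3 reads make 1.42 FPKM in KO 1 and 1.62 in KO 3, so these libraries, with 1 and 0 reads, cannot be told from control 1 at this depth. Hist1h4k was at 1.08, 3.20 and 4.69 FPKM in the controls and 0, 1.09 and 0 in the KO libraries, where 3 reads make 2.81 and 3.20 FPKM in KO 1 and KO 3. Hist1h4n, with a mean of 3.09 FPKM, measured 2.75, 4.03 and 4.79 and 1.36, 1.74 and 3.87 FPKM, with overlap. Hist1h4h, whose stem-loop lies near the end of its model, measured 1.43, 3.52 and 2.81 FPKM in the controls and 4.33, 2.02 and 7.74 in the KO libraries, which also overlapped (log2 difference 0.58, limma adjusted p = 0.55).

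**Figure D3:**
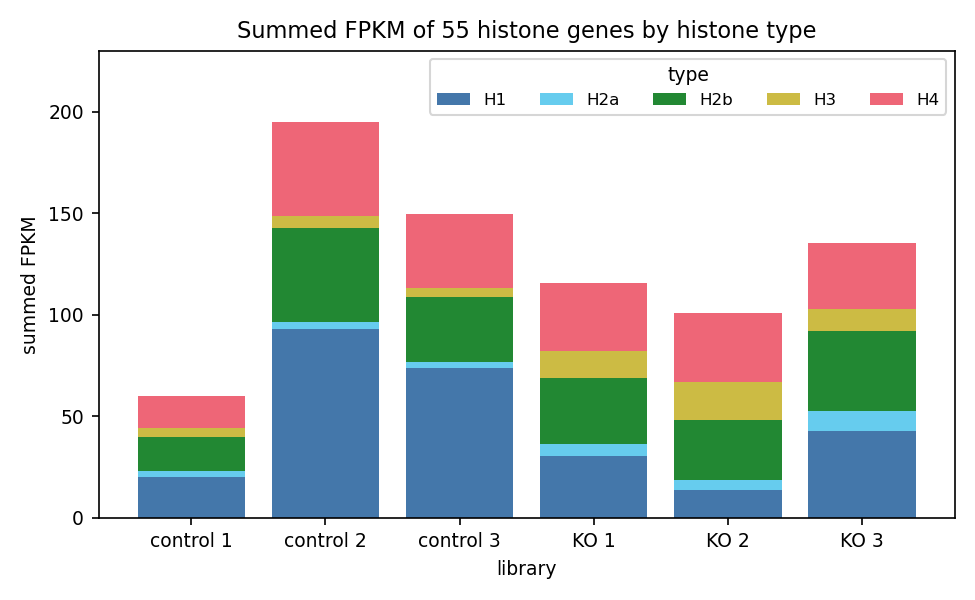
Summed FPKM (vertical) of the 55 histone genes in each library (horizontal), stacked by histone type. The H1 part is largest in control 2 (93.2 FPKM) and control 3 (73.6), and the H3 part is 4.16 to 5.78 FPKM in the controls and 10.7 to 18.5 in the KO libraries.

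Apart from Hist1h1c, Hist1h2bc and Hist1h4i, the other 52 genes, a split made after their levels were seen, had a higher sum in every KO library than in any control. They added up to 34.1, 43.1 and 44.4 FPKM in the controls and to 62.3, 65.6 and 66.7 in the KO libraries, means of 40.6 ± 5.61 and 64.9 ± 2.31 (SD, n = 3 each) and a log2 ratio of 0.68. These sums rest on 495, 680 and 676 implied reads in the controls and 217, 867 and 206 in the KO libraries. The ratio was 0.69 without KO 1 and KO 3, 0.93 without control 2 and 3 and 0.72 after each library was divided by its upper quartile. Other protein-coding genes of 1 exon (623 genes) had a mean log2(FPKM + 1) of 1.21 to 1.28 in the controls, 1.56 and 1.58 in KO 1 and KO 3 and 1.2 in KO 2. The 812 olfactory and vomeronasal receptor genes summed to 807 and 856 FPKM in KO 1 and KO 3 and to 15.3 in KO 2. What raised these genes in KO 1 and KO 3, and its part in the histone sum, was not tested.

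Against proliferation markers of the same library, the picture depended on KO 1 and KO 3. Mki67, which encodes the Ki-67 protein of cycling cells, measured 19.6, 23.0 and 41.8 FPKM in the controls and 9.56, 33.2 and 4.86 in the KO libraries. Top2a, the topoisomerase that untangles replicated DNA, measured 26.1, 22.3 and 32.1 FPKM and 13.4, 51.5 and 8.86. Both were lowest in KO 1 and KO 3, and neither passed (log2 differences of -1.11 and -0.50, limma adjusted p of 0.446 and 0.694). Per FPKM of Mki67 and Top2a together, the summed histone FPKM was 1.31, 4.30 and 2.02 in the controls and 5.03, 1.19 and 9.86 in the KO libraries. The log2 ratio of the group means was 1.08, and -1.10 without KO 1 and KO 3, so the direction turned on these libraries. With the 24 S phase genes in place of Mki67 and Top2a it was -0.23.

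The same ratio for the 52 genes set KO 1 and KO 3 apart further. It was 0.747, 0.953 and 0.601 in the controls, 0.775 in KO 2, and 2.71 and 4.86 in KO 1 and KO 3. KO 2, which had the highest level of Mki67 and Top2a together (84.7 FPKM), thus lay within the range of the controls. The lowest Mki67 and Top2a, in KO 3, went with no lower sum of the 52 genes. KO 3, at 13.7 FPKM of these markers together, had a sum of 66.7 FPKM, from 206 implied reads, close to the 65.6 FPKM of KO 2. The 812 olfactory and vomeronasal receptor genes summed to 856 FPKM in KO 3 and 15.3 in KO 2. What raised them in KO 3, and its part in the histone sum and ratio there, was not tested. For Hist1h1c alone the ratio was 0.392, 1.96 and 0.959 in the controls and 1.1, 0.129 and 2.95 in the KO libraries, lowest in KO 2.

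**Figure D4:**
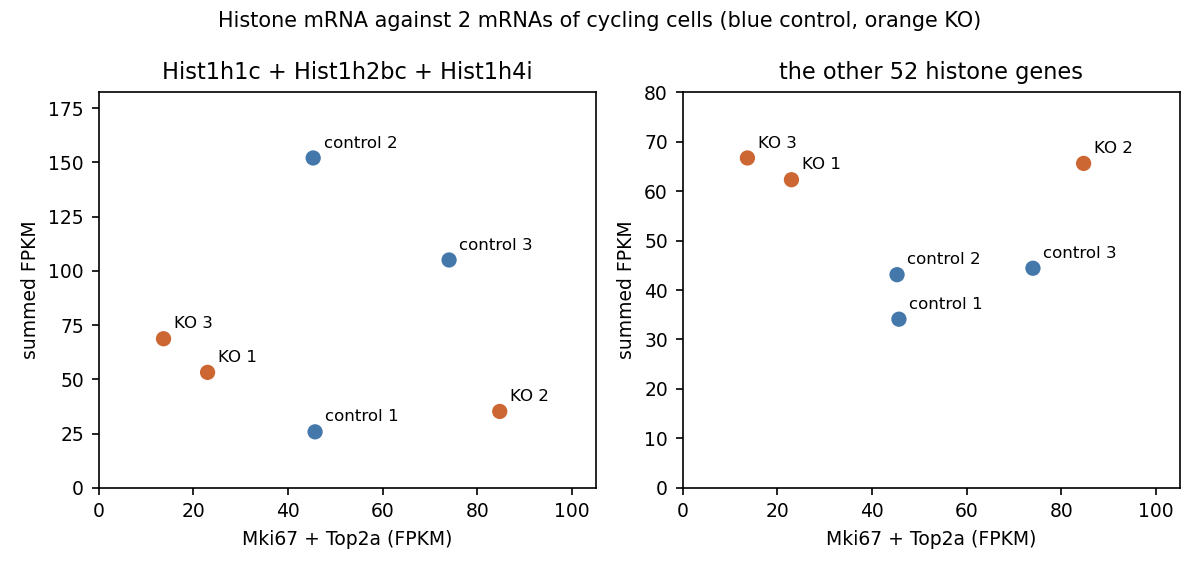
Summed FPKM of Hist1h1c, Hist1h2bc and Hist1h4i (left, vertical) and of the other 52 histone genes (right, vertical) against Mki67 plus Top2a (horizontal, FPKM), 1 point per library, controls blue and KO orange. On the right the KO libraries lie at 62.3 to 66.7 FPKM and the controls at 34.1 to 44.4, while on the horizontal axis KO libraries are found at both ends.

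In the test across all genes, none of the histone genes passed. limma was run on log2(FPKM + 1) of every gene that reached 1 FPKM in 3 or more libraries, which left 18 of the 55 members (2 of H1, 1 of H2a, 5 of H2b, 4 of H3 and 6 of H4). At an adjusted p of 0.05, 0 of the 18 members passed, as did 0 of all 13956 genes tested (0%). At an unadjusted limma p under 0.05 there were 6 members, against 11.8% of all genes tested; 4 were higher in KO (5.33% of all genes) and 2 lower (6.46%). The estimate was above 0 in 12 of the 18, against 56.9% of genes tested. limma-voom on the implied reads called 0 of 14 members and 0 of all 15580 genes in its fit (0%), with 1 of the 14 at an unadjusted p under 0.05, against 8.82% of those genes. The smallest p was that of Hist1h3h, with a log2 difference of 1.38 (SE 0.31, limma adjusted p = 0.417). Those of Hist1h4d, Hist1h3i and Hist1h3g were 1.27, 1.60 and 0.96, and those of Hist1h4k and Hist1h2bg -1.52 and -1.28, all with a limma adjusted p of 0.417. Hist1h3a (0.66), Hist3h2ba (0.70), Hist1h4c (0.65) and Hist1h4n (-0.60) had limma adjusted p of 0.417 to 0.461.

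The filter on low values set which genes entered these counts. All 4 tested H3 genes (Hist1h3a, Hist1h3g, Hist1h3h and Hist1h3i) reached 1 FPKM in the 3 KO libraries and in no control, so they were tested because they were high in KO and had to differ. KO libraries all lay above the controls for these 4 and for Hist1h4d, 5 of 18 members against 6.7% of genes tested, and all below for 1, Hist1h2bg, against 9.44%. For Hist1h3a, Hist1h3g, Hist1h3h and Hist1h2bg, this rests in KO 1, KO 3 or both on values under the limit of 3 reads. The median log2 difference of the 18 members was 0.56 and that of all genes tested 0.10. Without a filter, over all 55 members, the median was 0.13 against 0.16 for all 35085 genes with a value above 0. There 5 members lay wholly above the controls (4.92% of all genes) and 3 wholly below (4.91%), the latter being Hist1h2bg, Hist1h2ad and Hist1h2bp, and 6 were at an unadjusted limma p under 0.05 (5.79%). After quantile normalization the median of the 18 was 0.29 and that of all genes tested -0.12. With KO 2 left out, 1 member, Hist1h4k, passed as lower (log2 difference -1.88, limma adjusted p = 0.0497). That fit called 1821 genes, Mki67 among them (-1.81, limma adjusted p = 0.0421). Hist1h4k was listed at 0 in KO 1 and KO 3, where 3 reads make 2.81 and 3.20 FPKM. These 0 values cannot be told from control 1, at 1.08 FPKM. Of its 50-base stretches, 71.5% are shared with other histone models.

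Genes that make and handle histone mRNA were compared as a list, and none of its members passed the test over all genes. Slbp, the protein that binds the stem-loop, measured 13.9, 11.3 and 12.2 FPKM in the controls and 21.5, 20.1 and 21 in the KO libraries. All KO libraries lay above all controls, by a log2 difference of 0.70 (SE 0.19, limma adjusted p = 0.417). Of the 13 tested genes of histone mRNA synthesis and processing, 9 had higher and 4 lower estimates, with a median of 0.14. Npat, the activator of histone gene transcription, had means of 6.99 ± 1.77 (control) and 5.05 ± 1.68 FPKM (KO). Cpsf3, the nuclease that cuts the end of histone mRNAs, was at 16.7 ± 2.37 and 21 ± 1.22 FPKM, and Ncbp2, a subunit of the nuclear cap-binding complex, at 23.7 ± 4.13 and 15.8 ± 6.51 (SD, n = 3 each).

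The replication-independent variants, most of which have ordinary poly(A) tails, had no common direction. Of 10 tested, 5 had higher and 5 lower estimates, with a median of -0.05, and 0 passed. H2afv, a gene of an H2A.Z variant, measured 50.2, 41.3 and 38.9 FPKM in the controls and 66.4, 78.6 and 84.8 in the KO libraries, all above the controls (log2 difference 0.80, limma adjusted p = 0.417). H3f3a, a gene of H3.3, measured 24.8, 66 and 79.7 FPKM and 23.6, 24.4 and 21.8, with control 1 near the KO level and the high values in the control libraries rich in neutrophil and erythroid RNA, whose part was not tested.

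Histone chaperones and replication genes were highest in KO 2 and lowest in KO 3 by their summed level. Of 12 chaperone genes tested, 6 had higher and 6 lower estimates (median -0.02), with Chaf1a, a subunit of the assembly factor CAF-1, at 10.1, 9.74 and 11.2 FPKM in the controls and 5.74, 16.3 and 3.02 in the KO libraries. Of the 24 S phase genes, 14 had higher and 10 lower estimates (median 0.11), and 3 lay wholly above the controls, against 6.7% of all genes tested. Gins1, a subunit of the replicative helicase, measured 7.19, 8.04 and 6.40 FPKM in the controls and 11.6, 12 and 11.2 in the KO libraries (log2 difference 0.62, limma adjusted p = 0.417). All 20 genes of G2 and M phase had lower estimates (median -0.51), while their summed FPKM was 146, 526 and 92.5 in the KO libraries against 264 to 364 in the controls, so KO 2 was the highest library. The summed FPKM of 9 B cell markers was 15.3 to 47.7 in the controls and 52.3 to 84.5 in the KO libraries, and of 7 plasma cell markers 132 to 331 and 57.2 to 224; their part in the histone levels was not tested. In each of these lists 0 genes passed.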

How the data were processed

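RNA-seq libraries of spleen CD8+ T cells (3 control, 3 KO) were analysed. The values deposited by the authors are FPKM, 1 per gene and library, read as such from the values. HISAT2 (version 2), HTSeq 0.6.0, Bowtie2 2.2.3 and the genome build mm8 are listed, without roles, in the submitters' processing notes; annotation and strand setting are not given in the sources used here. Of 35458 identifiers, 35313 matched GENCODE M21, from which symbols and exon lengths came. FPKM times exon length fell within 0.02 of a whole read for 92.1% to 93.4% of values under 200 implied reads, which gave the library totals. For 36 of the 55 members the implied reads were whole; for the others they are approximate.

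Differences were tested with limma 3.58.1 (R 4.3.3), intensity trend, group as the only term, on log2(FPKM + 1), with Benjamini-Hochberg adjustment over all tested genes. As an added alternative, limma-voom was run on implied reads rounded to whole numbers and scaled by library totals; the planned version with TMM factors is not reported, because the values are FPKM. The procedure was run on simulated data, with changes only in genes of many reads. It does not bear on histone members of few reads. Named members were the most abundant of each type (up to 5 per type), the 10 with the smallest p, and up to 3 genes of each other list; further names were picked with their values known, and some genes the rule named are not reported. Members and lists were chosen with earlier results of these data known. Tables and plots were made with Python 3.11.15, pandas 2.3.3 and matplotlib 3.10.9.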

Additional observations from a re-analysis of the deposited data

How the results depend on the processing

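No histone gene passed limma under a pseudocount of 0.1, no filter, a mean filter, quantile normalization, protein-coding genes only or limma-voom, and no other gene did either. With single libraries left out, 0 to 1 of the 18 members passed. The 1 passed without KO 2, where 1821 of all 13956 genes passed. That member, Hist1h4k, was listed at 0 in both KO 1 and KO 3. Without control 1, 0 members and 363 genes passed. Without control 2 and 3, or KO 1 and 3, 1 group is a single library assumed to vary like the other group; 0 of 13956 genes passed there, which says nothing about stability. With the replicate number as a block, 0 members passed; same-numbered libraries correlated at 0.11, 0.02 and 0.02 in their deviations, and not every library correlated best with its own number, so no pairing was assumed. The median log2 difference of tested members (0.56) was 0.34 to 0.58 with single libraries left out, 0.04 by limma-voom (14 members), 0.13 without a filter (55 members), 0.12 without KO 1 and 3, and 0.29 after quantile normalization. The summed log2 ratio (-0.20) was 0.97 without control 2 and 3, 0.28 without Hist1h1c, and -0.55 to 0.16 with single libraries left out, negative without control 1 and positive without control 2. That per Mki67 and Top2a (1.08) was -1.10 without KO 1 and 3, -0.23 per S phase sum and 0.29 to 1.69 with single libraries left out. For the other 52 genes (0.68) it was 0.93 without control 2 and 3 and 0.57 to 0.75 with single libraries left out; for H3 (1.58) 1.97 without KO 1 and 3 and 1.34 to 1.75; for H2a (1.15) 0.68 without KO 1 and 3 and 0.81 to 1.34. Without KO 1 and 3, Hist1h4c was at -0.13 against 0.65, Mki67 at 0.31 against -1.11 and Top2a at 0.93 against -0.50. Apart from fewer libraries or other genes tested, the cause was not tested. limma-voom and the alternatives for the 52 genes, H3 and H2a were chosen after seeing the data. Count models were not run, since the values are FPKM.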

Other observations

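Hist1h2al, annotated as a processed pseudogene and so outside the 55 genes, was at 0.997, 3.73 and 3.34 FPKM in the 3 controls against 19.0, 0.603 and 30.4 in the KO libraries, from 4, 19 and 17 and 22, 3 and 31 implied reads. It was chosen after its values were seen. KO 1 and KO 3 stood above the other 4 libraries. The RNase P RNA Rpph1, which is made by RNA polymerase III and has no poly(A) tail, measured 10.3, 14.0 and 16.1 FPKM in the controls and 27.5, 11.7 and 49.0 in the KO libraries, again highest in KO 1 and KO 3. Terc and Scarna2, which mostly lack a poly(A) tail too, were listed highest in KO 2, at 1.13 and 1.48 FPKM. Their values in KO 1 and KO 3 (0.691 to 0.804 FPKM) lay under what 3 reads make there in a gene of 1 kb, 0.877 and 0.998 FPKM. KO 2 thus cannot be called higher.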
